A study of Mus musculus with 24 samples.

Results

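Axon guidance ligands and receptors belong to the classic cue systems by which growing axons, dendrites and migrating neurons choose where to go: semaphorins with plexins and neuropilins, ephrins with Eph receptors, Slits with Robos, and netrins with Dcc and the Unc5 receptors. The members were taken by gene symbol, as the protein-coding mouse genes named Sema3 to Sema7 with a suffix, Plxn, Nrp1 and Nrp2, Efna and Efnb, Epha and Ephb, Slit1 to Slit3, Robo1 to Robo4, Ntn, Unc5a to Unc5d, and Dcc. The count tables held 68 such genes among 126602 features, 34 of them ligands and 34 receptors, and 21547 of the features were protein-coding genes. Ntn3 was not analysed here. The 63 members with a base mean of at least 10 normalised counts were tested. The other 5 members, Sema3g, Epha1, Plxnb3, Robo4 and Ntn5, had base means between 0.104 and 7.99 normalised counts and were not tested.

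Mouse retinal organoids (MROs) are small pieces of neural retina grown in culture from pluripotent stem cells. All MROs came from the wild-type mouse embryonic stem cell line E14Tg2a, carried the genotype label Control and had received solvent (water) as their treatment. The authors' culture protocol also added a synthetic retinoid to the medium for some days before D20. One library of rRNA-depleted total RNA was made from each of 24 individual MROs, 6 for every timepoint, which were D20, D22, D25 or D30 of differentiation. All were taken from 1 independent experiment, so the p-values measure the spread between organoids of that experiment only. Between 13634846 and 19477108 reads were counted on a feature in each organoid. At this depth 3 counts corresponded to between 0.166 and 0.216 normalised CPM, the counts scaled to a fixed library size, which covers counting error only. In these bulk libraries, fewer cells of a type and less RNA per cell cannot be told apart.

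Semaphorins repel or attract growth cones through plexins, which act as GTPase-activating proteins on small Ras-family GTPases, and most secreted class 3 semaphorins reach plexins by way of the neuropilins. Ephrins are bound to the membrane of one cell and Eph receptor tyrosine kinases to that of its neighbour, and in the retina graded Eph and ephrin levels along the nasal to temporal and dorsal to ventral axes are known for setting where ganglion cell axons end in the brain. Slits repel through Robo receptors and help ganglion cell axons to fasciculate and leave the eye, while netrins attract through Dcc and repel through the Unc5 receptors. Beyond ganglion cells, transmembrane semaphorins and plexins are known for sorting neurites into the layers of the inner plexiform layer and for placing horizontal cell processes.

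From D20 to D30, 13 of the 63 tested members rose and 16 fell past an adjusted p of 0.01 in edgeR's quasi-likelihood test, and 34 did not pass. The genes that rose were led by the netrin receptor Unc5d, the secreted semaphorin Sema3d and the transmembrane semaphorin Sema6d. Those that fell were led by the receptors Epha8 and Epha2 and the ligand Efnb2. Among all 46949 tested features, 13.9% were called higher and 13% lower. Among the 13263 tested protein-coding genes these shares were 28.8% and 16.5%, beside 20.6% and 25.4% of the tested members. The median log2 fold change of the tested members was -0.16, that of the tested protein-coding genes 0.15 and that of all tested features -0.04. Of the 32 tested ligands, 6 rose and 6 fell, and of the 31 tested receptors, 7 rose and 10 fell.

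**Figure D1:**
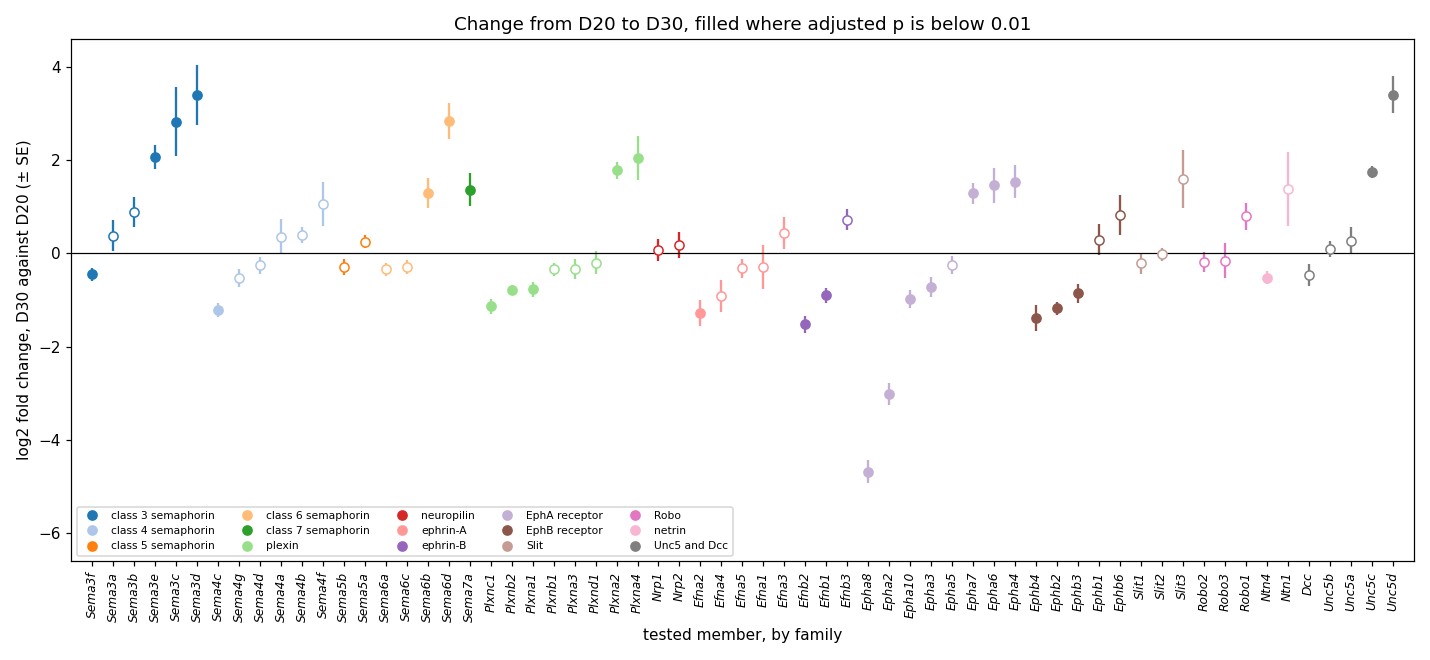
Each point is 1 of the 63 tested members, grouped by family along the horizontal axis, and the vertical axis gives its log2 fold change of D30 against D20 from edgeR with the standard error as a bar. Filled points have an adjusted p below 0.01. Epha8 lies lowest at -4.69 and Unc5d highest at 3.41, and the 3 tested ephrin-B genes include 2 filled points below 0 while no EphB receptor has a filled point above 0.

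Promoter sequences from the RefSeq table of GRCm38.p6 were available for 53 of the 63 tested members. The 250 bases before the RefSeq start are shown for Epha8, the member with the steepest fall, and for Sema3d, a member with one of the largest rises. Gene positions given further below came from a GENCODE annotation, in which Sema3d starts downstream of the RefSeq start used here. Capitals mark the E-box CANNTG, the core sequence bound by basic helix-loop-helix factors, searched on both strands, on which it reads the same.

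Epha8, chr4:136956817-136957066, minus strand: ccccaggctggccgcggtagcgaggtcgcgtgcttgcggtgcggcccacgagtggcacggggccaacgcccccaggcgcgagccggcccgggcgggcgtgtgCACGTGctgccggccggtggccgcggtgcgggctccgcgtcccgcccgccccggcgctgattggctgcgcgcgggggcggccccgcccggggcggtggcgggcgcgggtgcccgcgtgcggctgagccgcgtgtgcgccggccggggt

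Sema3d, chr5:12382916-12383165, plus strand: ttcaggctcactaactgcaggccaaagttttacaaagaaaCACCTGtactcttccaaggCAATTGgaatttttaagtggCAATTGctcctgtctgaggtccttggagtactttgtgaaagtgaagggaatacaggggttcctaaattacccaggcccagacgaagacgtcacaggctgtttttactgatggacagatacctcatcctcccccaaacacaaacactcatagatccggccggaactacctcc

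The Epha8 window held 1 E-box and the Sema3d window 3, in a set of 32851 promoters of which 66.2% held at least 1 in the same 250 bases. Among the 53 members with a promoter in the table, 27 held one in at least 1 of their promoters, or 50.9%. These members had 69 promoters, and the shares of all promoters count single promoters, so the units differ. The E-box count was 1 in the Efnb2 window and 0 in the Epha2 window, and the Sema6d windows, of 2 start sites, held 1 and 2. None of these windows held TAATCC, the core bound by CRX and OTX2, on either strand (6.25% of all promoters did), or the palindromic homeodomain core TAATTA (4.84% of all promoters did). Over all members with a promoter, again counted by gene, 1 held the first and 3 held the second.

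Of the 6 tested secreted class 3 semaphorins, Sema3c, Sema3d and Sema3e rose and Sema3f fell. Sema3c, known as a cue for commissural and cortical axons, was measured at 0.569 to 58.3 normalised CPM on D20 (median 14.5), 0.429 to 9.91 on D22 (median 5.46), 7.39 to 181 on D25 (median 50.3) and 16.3 to 229 on D30 (median 161). The organoids of D20 and D30 overlapped, because D30 organoids 3 and 6, at 45.6 and 16.3, lay within the D20 range, and the fitted log2 fold change was 2.83 ± 0.74 (SE, adjusted p = 0.0028). Sema3d (chr5:12383385-12588948 of GRCm38, plus strand) lay between 0 and 1.12 CPM at D20 and between 2.27 and 17.3 at D30, with medians of 0.748 and 5.88. Its groups did not overlap, at 3.39 ± 0.64 (adjusted p = 7.9e-05), although its D20 values were close to the level of a few reads. Sema3e, a ligand that binds Plxnd1 without a neuropilin, rose from 5.94 ± 1.57 (SD, n = 6) to 24.9 ± 5.64 CPM, with no overlap between D20 (3.64 to 7.85) and D30 (17.6 to 31.8) and a log2 fold change of 2.07 ± 0.27 (adjusted p = 2.5e-07). Its partner Plxnd1 was at 19.1 ± 4.64 CPM at D20 and 16.6 ± 8.16 at D30 (adjusted p = 0.55).

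Sema3f, which signals mainly through Nrp2, fell by 0.45 ± 0.13 on the log2 scale, from 23.6 ± 2.14 to 17.2 ± 2.65 CPM (adjusted p = 0.0069), and its 6 D30 values, up to 20.2, lay just below the lowest D20 value of 20.8. The call was kept in 17 of the 24 fits that each left out 1 organoid, and was lost without D20 organoid 1, 2, 3 or 5 or D30 organoid 1, 2 or 4. Sema3a, the classic growth cone collapsing factor, and Sema3b did not pass, at log2 fold changes of 0.37 and 0.89. The median over the 6 tested class 3 genes was 1.48.

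Of the membrane-bound semaphorins, 2 of 4 class 6 genes and Sema7a rose, 1 of 6 class 4 genes fell, and neither class 5 gene passed. Of the class 6 genes, which act as ligands and as receptors, Sema6d lay at 3.36 to 14.1 CPM on D20 (median 5.77), 3.13 to 9.39 on D22, 11.5 to 33.2 on D25 and 18.2 to 109 on D30 (median 55.1). No D30 organoid overlapped with D20, at a log2 fold change of 2.84 ± 0.39 (adjusted p = 8.6e-07). Sema6b rose as well, from 3.07 ± 0.959 to 7.53 ± 3.36 CPM (1.29 ± 0.32, adjusted p = 0.0018). Sema6a, a partner of Plxna2 and Plxna4, and Sema6c did not pass for D30 against D20, at -0.34 and -0.30. Sema6c was level at 30.4 ± 5.28, 31.4 ± 8.21 and 36.2 ± 1.44 CPM from D20 to D25 and at 24.7 ± 4.77 at D30. The GPI-anchored Sema7a, a ligand of Plxnc1 and integrins, rose from 6.42 ± 1.87 to 16.6 ± 9.56 CPM (1.37 ± 0.35, adjusted p = 0.0023), with D30 organoids spread from 2.77 to 30.1, and was no longer called without D30 organoid 5.

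Of the 6 class 4 genes, Sema4c alone passed, and it fell. Its values were 24.1 to 33.5 CPM on D20 (median 28.2), 20.2 to 33.7 on D22, 15.3 to 19.5 on D25 and 8.81 to 15.3 on D30 (median 11.4). D20 and D30 did not overlap, and the log2 fold change was -1.22 ± 0.15 (adjusted p = 9e-08). Sema4a, Sema4b, Sema4d, Sema4f and Sema4g ranged from -0.53 for Sema4g to 1.06 for Sema4f. The class 5 genes Sema5a and Sema5b, known for keeping retinal neurites within the inner plexiform layer, were at 27.4 ± 3.48 and 12.6 ± 2.55 CPM at D20 and 32.6 ± 5.07 and 10.3 ± 3.08 at D30, and neither passed.

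**Figure D2:**
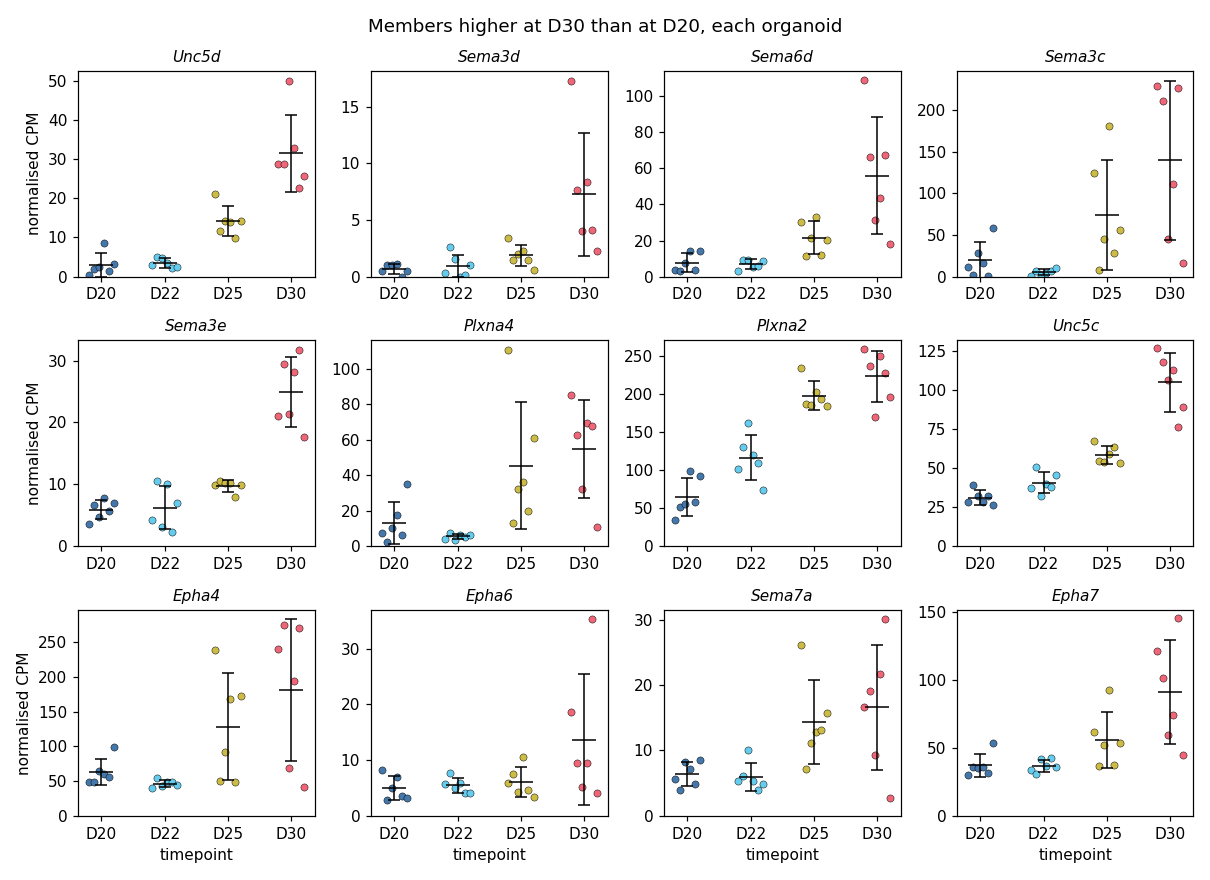
Each panel is 1 of the 12 members with the largest rises from D20 to D30 past the threshold, with the timepoint on the horizontal axis and normalised CPM on the vertical axis, which starts at 0. Points are single organoids and the bars are the mean ± SD of 6. Unc5c, Unc5d, Sema3e, Sema3d, Sema6d and Plxna2 have every D30 organoid above every D20 organoid. Sema3c, Plxna4, Epha4, Epha6 and Epha7 have D30 organoids within the D20 range. Sema7a has D30 organoid 6 below the D20 range and all other D30 organoids above it.

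Among the 8 tested plexins, the receptors of the semaphorins, 2 rose and 3 fell. Plxna2, a receptor for class 6 semaphorins, lay at 33.8 to 98.5 CPM on D20 (median 56.5), 73.9 to 162 on D22 (median 115), 184 to 233 on D25 (median 190) and 170 to 259 on D30 (median 232). The rise from D20 to D30 was 1.78 ± 0.19 (adjusted p = 5e-09) without overlap. Plxna4, a receptor for class 3 and class 6 semaphorins, had medians of 8.9, 5.83, 34.1 and 65.2 CPM in the 4 timepoints, and its D30 organoids ranged from 10.9 to 85. Its D20 organoids, from 2.55 to 35, overlapped with them, at a log2 fold change of 2.04 ± 0.48 (adjusted p = 0.0011). Plxna4 and its annotated antisense gene Plxna4os3 overlap, and their reads cannot be told apart where the counting ignored strand.

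The 3 plexins that fell were Plxnc1, the Sema7a receptor, and Plxna1 and Plxnb2, which carry class 3 or class 6 and class 4 signals. Plxnc1 had 62.4 to 81.1 CPM on D20, 69.3 to 99.6 on D22, 48.9 to 74.2 on D25 and 18.6 to 44.5 on D30, so that all D30 organoids lay under every other one (-1.14 ± 0.15 against D20, adjusted p = 5.5e-07). Plxnb2 declined from 147 ± 20.8 to 85.3 ± 13.5 CPM (-0.79 ± 0.10, adjusted p = 3.3e-07). Plxna1 declined from 55.2 ± 8.05 to 32.5 ± 11.2 CPM (-0.77 ± 0.16, adjusted p = 0.00031). Plxna3, Plxnb1 and Plxnd1 did not pass, at -0.34, -0.34 and -0.20. The co-receptors Nrp1 and Nrp2 were at 69.7 ± 14.0 and 44.4 ± 20.2 CPM at D20 and at 73.3 ± 38.5 and 50.3 ± 21.1 at D30 and did not pass, with Nrp1 between 32.3 and 124 CPM in the D30 organoids.

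The ephrins and their receptors held most of the falls, 10 of the 16, and 3 of the 13 rises. They also made up a large part of the 63 tested members, with 5 ephrin-A, 3 ephrin-B, 8 EphA and 5 EphB genes. Efnb2, a transmembrane ephrin of the dorsal retina, lay at 173 to 317 CPM on D20 (median 272), 133 to 259 on D22 (median 214), 111 to 180 on D25 (median 135) and 44.2 to 114 on D30 (median 94.4). D20 and D30 did not overlap, and the log2 fold change was -1.52 ± 0.19 (adjusted p = 9.4e-08). Efnb1 fell by 0.90 ± 0.16 on the log2 scale, from 21.2 ± 2.63 to 11.4 ± 3.02 CPM (adjusted p = 5.4e-05), also without overlap. Efnb3 did not pass (0.72 ± 0.22, adjusted p = 0.011). It passed under DESeq2, with the DESeq2 size factors in edgeR and with no filter on low counts. It also passed without D30 organoids 3 and 6, and in 3 of the 24 fits without 1 organoid.

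Of the 5 GPI-anchored ephrin-A genes, Efna2 alone passed, falling by 1.28 ± 0.28 on the log2 scale from 5.48 ± 1.58 to 2.25 ± 0.727 CPM (adjusted p = 0.00057). Its D20 organoids (2.52 to 6.53) and D30 organoids (0.963 to 3.14) overlapped. Efna5, a ligand graded along the nasal to temporal axis of the retina and its target, had 9.04 ± 2.03, 7.38 ± 0.882, 7.16 ± 1.08 and 7.23 ± 2.41 CPM in order of time and did not pass (adjusted p = 0.23). Efna1, Efna3 and Efna4 had log2 fold changes of -0.29, 0.44 and -0.91 and did not pass.

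The EphA receptors moved in both directions, with 3 of the 8 tested genes higher at D30 and 4 lower. Epha8 (chr4:136929419-136956816 of GRCm38, minus strand), whose promoter is printed above, was at 102 to 136 CPM on D20, 90.1 to 127 on D22, 24.6 to 80.8 on D25 and 3.36 to 7.38 on D30. All 6 D25 organoids lay below all of D22, and all 6 D30 organoids below all of D25. The log2 fold change from D20 to D30 was -4.69 ± 0.24 (adjusted p = 3e-15), the largest in absolute size of the 63 tested members. Epha2 declined from 31.0 ± 8.39 through 16.4 ± 3.92 and 6.02 ± 1.80 to 3.84 ± 1.05 CPM (-3.01 ± 0.23, adjusted p = 7.1e-12), with no overlap from D20 to D22 or from D22 to D25. Epha10, a receptor with a kinase-dead domain, fell by 0.98 ± 0.19 on the log2 scale, from 15.8 ± 3.42 to 8 ± 1.85 CPM (adjusted p = 0.00012). Epha3 fell by 0.72 ± 0.21 on the log2 scale with overlapping groups, and this call was kept in 12 of the 24 fits without 1 organoid. It was lost without D20 organoid 2, 4, 5 or 6, D22 organoid 1, 4 or 5, D25 organoid 3, or D30 organoid 2, 3, 4 or 6.

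The EphA receptors that rose were Epha4, Epha6 and Epha7. Epha4, which binds ephrins of the A and the B class, lay at 48.9 to 99 CPM on D20 (median 57.7), 39.8 to 53.9 on D22, 49 to 239 on D25 (median 130) and 41.7 to 274 on D30 (median 217). At D30, organoids 1, 2, 4 and 5 lay between 193 and 274 and organoids 3 and 6 at 69.3 and 41.7, within or below the D20 range. The log2 fold change was 1.53 ± 0.35 (adjusted p = 0.0009). Epha7 went from 37.3 ± 8.42 to 91.0 ± 38.5 CPM (1.29 ± 0.22, adjusted p = 2.4e-05) and Epha6 from 4.98 ± 2.17 to 13.7 ± 11.7 (1.46 ± 0.38, adjusted p = 0.0029). Epha6 was no longer called without D30 organoid 5, which was at 35.2 CPM beside 4.05 to 18.7 in the other 5. Epha5, a receptor graded from temporal to nasal in ganglion cells, had 274 ± 56.0, 290 ± 32.6, 251 ± 64.0 and 232 ± 90.4 CPM and did not pass (adjusted p = 0.35).

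Of the 5 EphB receptors, 3 fell and none rose past the threshold. Ephb2, a receptor known for its ventral gradient in the retina, was at 84.2 to 132 CPM on D20, 72.3 to 89.3 on D22, 65.7 to 84.2 on D25 and 31.2 to 59.9 on D30, and the D30 organoids lay under all others (-1.18 ± 0.13 against D20, adjusted p = 1.3e-08). Ephb3 fell by 0.86 ± 0.20 on the log2 scale, from 11.2 ± 2.18 to 6.19 ± 1.38 CPM (adjusted p = 0.001). Ephb4, known from vessel walls, fell by 1.39 ± 0.27, from 8.55 ± 2.70 to 3.25 ± 1.40 CPM (adjusted p = 0.00014). Ephb1, which is known for turning ventrotemporal axons away from the midline, and the kinase-dead Ephb6 did not pass, at 0.29 ± 0.34 and 0.82 ± 0.42.

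**Figure D3:**
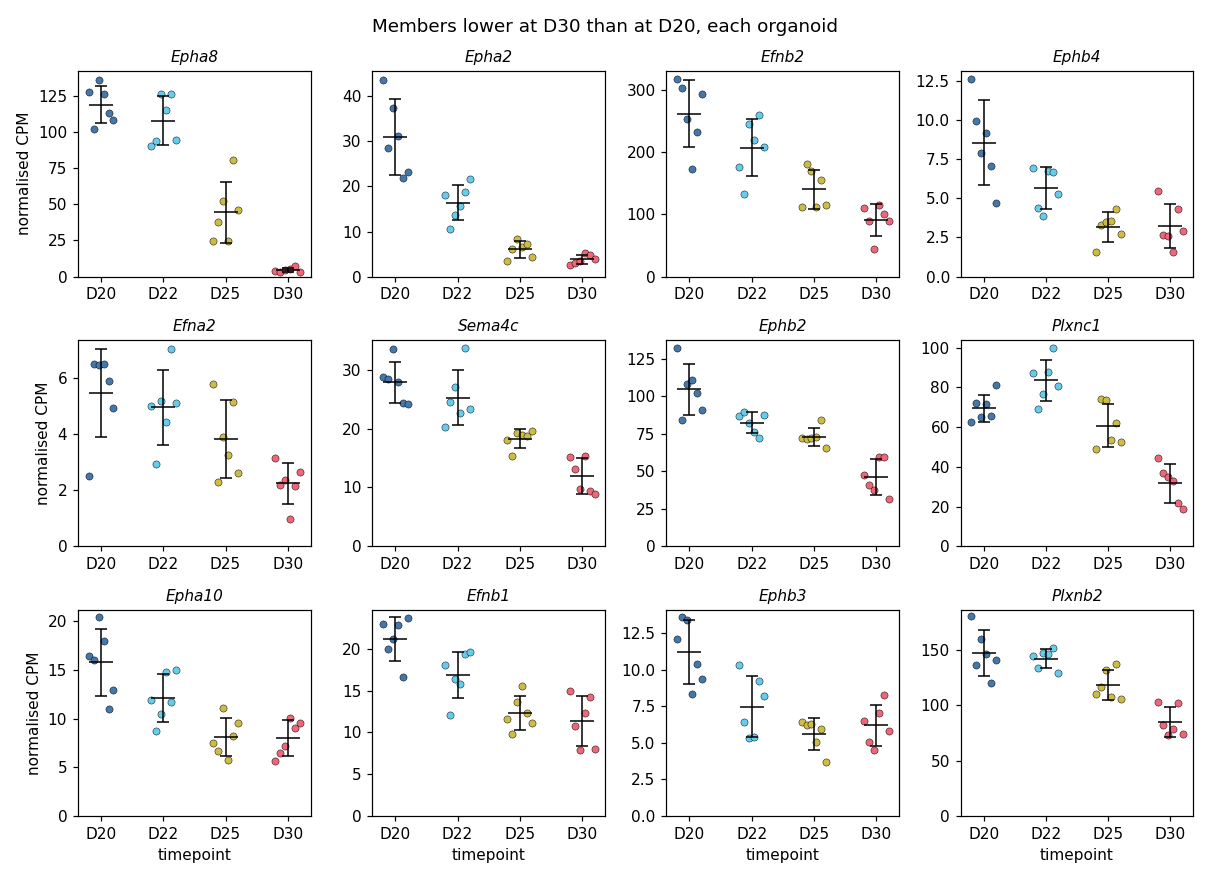
Each panel is 1 of the 12 members with the largest falls from D20 to D30 past the threshold, with the timepoint on the horizontal axis and normalised CPM on the vertical axis, which starts at 0. Points are single organoids and the bars are the mean ± SD of 6. In all panels but those of Ephb4 and Efna2 every D30 organoid lies below every D20 organoid, and Epha8 drops from between 102 and 136 to between 3.36 and 7.38 CPM.

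No Slit and no Robo gene passed for D30 against D20, and 2 of the 3 tested Robos and 1 of the 3 Slits passed the joint test of the 4 timepoints. Robo3, a receptor that lets commissural axons cross the midline, was at 4.25 ± 1.72, 11 ± 3.13, 10.7 ± 5.11 and 3.82 ± 3.08 CPM in order of time (joint adjusted p = 0.00065). All D22 organoids (5.9 to 14.7) lay above all D20 organoids (1.4 to 5.89), and D25 overlapped with D30. Robo1 had its highest mean at D25, with 17.5 ± 10.8, 28.3 ± 11.1, 41.8 ± 7.02 and 30.3 ± 11.1 CPM (joint adjusted p = 0.0071), and passed for D30 against D20 without D20 organoid 4 or D30 organoid 6. Robo2, the receptor with the highest level per exon length of the family, was at 251 ± 38.7 CPM at D20 and 221 ± 103 at D30 (adjusted p = 0.51), and its D30 organoids spread from 85.7 to 381. Slit2 had its lowest mean at D25, with 62.3 ± 8.47, 52.8 ± 8.18, 42.2 ± 9.77 and 61.3 ± 9.66 CPM (joint adjusted p = 0.0056). Slit1 and Slit3 were at 14.6 ± 6.81 and 2.03 ± 1.40 CPM at D30 and did not pass in any comparison.

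Among the netrin receptors the rises were confined to Unc5c and Unc5d of the 5 tested. Unc5d lay at 0.28 to 8.71 CPM on D20 (median 2.11), 2.16 to 5.09 on D22, 9.81 to 21.2 on D25 and 22.7 to 50.1 on D30 (median 28.8). Its groups did not overlap between D22 and D25 or between D25 and D30, and the log2 fold change from D20 to D30 was 3.41 ± 0.39 (adjusted p = 3.5e-08). Unc5c (chr3:141465216-141834924 of GRCm38, plus strand) was at 26.4 to 39.4 CPM on D20, 32 to 50.9 on D22, 53 to 67.6 on D25 and 76.4 to 127 on D30, with no overlap after D22. Its log2 fold change of 1.75 ± 0.13 (adjusted p = 2.4e-12) had the smallest adjusted p of all members that rose. It overlaps the antisense gene Gm15688. Dcc, the attractive netrin receptor, was at 27.8 ± 5.29 and 20.2 ± 7.38 CPM at D20 and D30 and did not pass (-0.46 ± 0.24, adjusted p = 0.13). Unc5a and Unc5b did not pass either, at 0.27 and 0.09.

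Of the netrins, Ntn4 fell and Ntn1 was low. Ntn4, a laminin-binding netrin of basement membranes, had 18.8 ± 0.750, 12.5 ± 3.02, 9.21 ± 1.32 and 13.1 ± 1.61 CPM, a fall of 0.52 ± 0.14 on the log2 scale from D20 to D30 (adjusted p = 0.0047) that was lost without D20 organoid 1 or D30 organoid 1, 2 or 5. Ntn1, the netrin of the optic disc, lay at 0.064 to 3.76 CPM at D20 and 0.637 to 6.59 at D30, and did not pass (adjusted p = 0.18). The D20 median of 0.211 was that of a few reads. Single organoids set the Ntn1 value: its log2 fold change of 1.38 became 3.11, past the threshold, without D20 organoid 4 and 0.64 without D30 organoid 5.

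Between consecutive timepoints fewer members were called than for D30 against D20, and D22 and D25 are each shared by a pair of these comparisons. From D20 to D22, 1 member rose, Plxna2 (0.84 ± 0.18, adjusted p = 0.0049), and 1 fell, Epha2 (-0.92 ± 0.21, adjusted p = 0.0079). Each was 1.59% of the tested members. The background was 1.62% higher and 0.285% lower over all tested features, and 2.89% and 0.912% over the tested protein-coding genes. Neither call was kept in all 24 fits without 1 organoid, with Epha2 past the threshold in 14 and Plxna2 in 17.

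From D22 to D25, 8 members rose (12.7% of those tested) and 2 fell (3.17%). Of all tested features 3.08% were called higher and 2.19% lower, and of the tested protein-coding genes 8.66% and 3.02%. All 10 had an adjusted p between 5.6e-05 and 0.0074. The rises were Sema3c (3.85 ± 0.79), Plxna4 (3.02 ± 0.51), Unc5d (2.04 ± 0.38), Sema6d (1.63 ± 0.38), Epha4 (1.47 ± 0.36), Plxna2, Sema4b and Unc5c (0.53 ± 0.12). The falls were Epha2 (-1.44 ± 0.22) and Epha8 (-1.28 ± 0.21). Sema3c at D25 ranged from 7.39 to 181 CPM and overlapped with D22, whereas Plxna4 (13.2 to 110 against 3.65 to 7.61) and Unc5c did not overlap. Of the 24 fits without 1 organoid, Sema4b was called in 15, Epha4 in 16, Unc5c in 17, Plxna2 in 18 and Sema6d in 19, and the other 5 calls were kept in all 24. Each of these 5 less stable calls was lost without D22 organoid 1, 4 or 5 or D25 organoid 1, among others. From D25 to D30, 2 members rose, Sema3e (1.35 ± 0.26) and Unc5c (0.84 ± 0.12), and 6 fell, led by Epha8 (-3.26 ± 0.23) and Plxnc1 (-0.94 ± 0.15), with Ephb2, Sema3f, Sema4c and Plxnb2 between -0.66 and -0.47. Sema4c was called in 12 of the 24 fits without 1 organoid, Plxnb2 in 21, being lost without D25 organoid 3 or 5 or D30 organoid 3, and Sema3f in 23, being lost without D25 organoid 5. The shares called there were 1.76% higher and 1.75% lower over all tested features, and 5.35% and 3.03% over the tested protein-coding genes. Those of the tested members were 3.17% and 9.52%.

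In the joint test, 33 of the 63 members differed among the 4 timepoints, where 27.2% of all tested features and 48% of the tested protein-coding genes did. Of these 33, 14 had their highest mean at D20 and 14 at D30, 3 at D22 and 2 at D25. The 5 that the comparison of D30 with D20 did not call were Robo1, Robo3, Sema4b, Sema4f and Slit2. Epha3 passed for D30 against D20 and not in the joint test.

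Levels can be compared between genes only per length. In mean normalised CPM per kb of exon, Efnb2 was highest over all organoids, at 25.5, followed by Plxnb2 at 16, Epha5 at 15.6, Epha8 at 14.6, Robo2 at 13.9 and Epha4 at 13. The order changed with time. Efnb2 went from 38.1 at D20 to 13.3 at D30 and Epha8 from 25.3 to 0.984, while Epha4 went from 7.79 to 22.5 and Sema3c from 2.76 to 19.6, so that Epha4 and Sema3c had the highest mean levels at D30. Their D30 organoids spread widely, and among Epha4, Sema3c, Epha5, Efnb2, Plxna2 and Robo2 the order at D30 did not hold in every organoid. At the other end, Ntn1, Slit3 and Sema3d had 0.151, 0.159 and 0.313 CPM per kb.

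**Figure D4:**
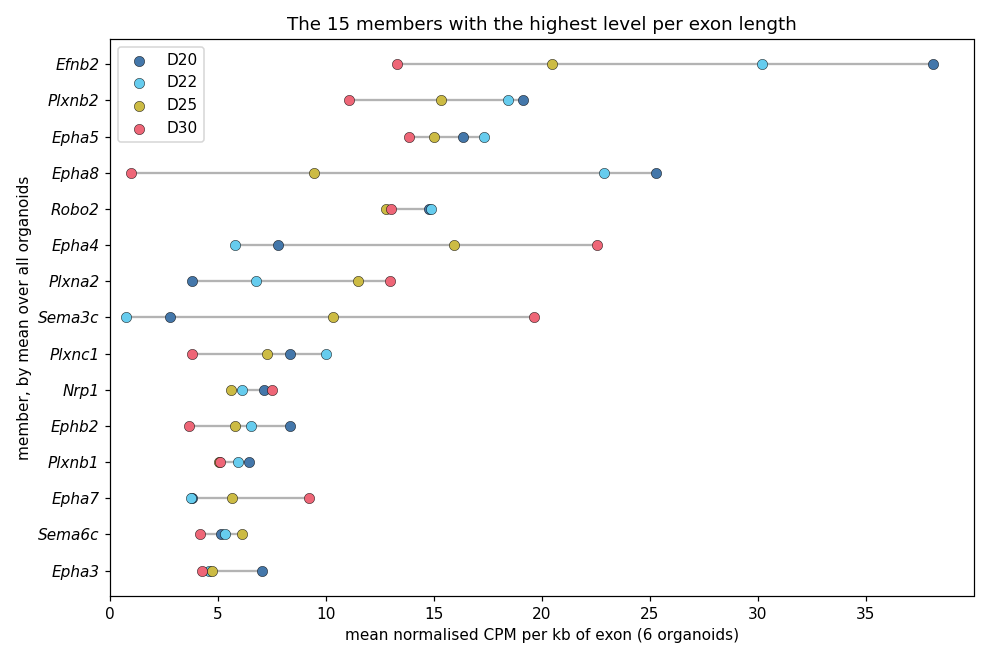
The 15 members with the highest level over all organoids are listed from top to bottom, and the horizontal axis, which starts at 0, gives the mean normalised CPM per kb of exon of 6 organoids at each timepoint. Grey lines join the lowest and highest timepoint of a gene. Efnb2 and Epha8 move left from D20 to D30, to 13.3 and 0.984, and Epha4, Plxna2, Sema3c and Epha7 move right.

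The organoids of D30 differed among themselves more than those of earlier timepoints. The median coefficient of variation of the tested members was 22.4% on D20, 23.7% on D22, 26.1% on D25 and 34.7% on D30. Summed over the tested members, normalised CPM lay between 2137 and 2652 at D20 and between 1340 and 3192 at D30. D30 organoids 3 and 6 held both lowest values of the 6 for 34 of the 63 tested members (54.0%), including Epha4, Epha5, Epha7, Sema3c, Plxna4, Nrp1, Sema7a and Dcc. The share over the tested protein-coding genes was 24.5%. Both highest values were theirs for 1 member, Sema3f, where the share was 4.87%.

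D30 organoids 3 and 6 were the highest of D30 for the summed photoreceptor markers, at 13861 and 11770 CPM beside 7036 to 11529 in the other 4. The summed endothelial markers were also highest in them, at 185 and 209 CPM beside 126 to 181. For the summed markers of several other cell types they were the lowest of D30. Müller glia markers were at 2134 and 1370 CPM there, beside 2599.8 to 4276 in the other 4, ganglion cell markers at 207 and 134 beside 299.6 to 450, mesenchyme markers at 31.1 and 32.1 beside 60.5 to 238, and oligodendrocyte markers at 29.9 and 18.1 beside 45.5 to 123.3. Markers of cerebral cortex neurons were lower in them too. The 5 genes were Tbr1, Neurod2, Neurod6, Emx1 and Eomes. Of these, Tbr1, Eomes and Neurod6 are also known from retinal cells, Neurod6 from postmitotic amacrine cells. Neurod6 had the highest mean of the 5, at 40.0 CPM on D20 and 93.7 on D30. Their sum reached 7.18 to 198 CPM on D20, 2.45 to 15.7 on D22, 4.81 to 257 on D25 and 5.38 to 217 on D30. D30 organoids 3 and 6 were at 25.3 and 5.38, and the other 4 D30 organoids between 145 and 217. Emx1 was at 0 in 4 of the 24 organoids and Tbr1 in 1, and none of the 5 was called for D30 against D20. For D25 against D22, 2 of the 5 were called higher, Neurod2 (3.56 ± 0.80, adjusted p = 0.0036) and Neurod6 (4.49 ± 1.05, adjusted p = 0.0047). In the D30 organoids with the lower sums, Sema3c, Plxna4 and Epha4 were at 45.6 and 16.3, 32.1 and 10.9, and 69.3 and 41.7 CPM. Unc5c and Unc5d in the same organoids were at 107 and 88.9, and 50.1 and 25.7 CPM, all above the D25 range.

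Without the 8 organoids in which this sum exceeded 100 CPM (1 at D20, 3 at D25 and 4 at D30), D30 kept 2 organoids, numbers 3 and 6. In this fit, 6 of the 13 rises were called and 12 of the 16 falls. The rises kept were Epha7 (0.64 ± 0.17), Plxna2 (1.64 ± 0.24), Sema3e (1.79 ± 0.39), Sema6d (1.94 ± 0.42), Unc5c (1.63 ± 0.16) and Unc5d (3.71 ± 0.53). Those lost were Epha4 (0.02 ± 0.21), Sema7a (0.04 ± 0.40), Sema3c (1.39 ± 0.80), Plxna4 (1.3 ± 0.44), Sema3d (2.11 ± 0.91), Sema6b (0.44 ± 0.42) and Epha6 (-0.17 ± 0.38). Epha8, Epha2, Efnb2 and Ephb2 were at -4.87 ± 0.28, -3.10 ± 0.31, -1.92 ± 0.26 and -1.62 ± 0.16 there, and Efna2, Epha10, Ntn4 and Sema3f were no longer called. Another 8 members were then called, all lower, among them Epha5 (-0.98 ± 0.15) and Nrp1 (-0.96 ± 0.14). For all of these 8 but Sema6a, D30 organoids 3 and 6 had held both lowest values of D30. For them this fit cannot separate the timepoint from the choice of organoids. With the log2 of the sum as a covariate in the fit of all 24 organoids, 11 of the 13 rises and 15 of the 16 falls were called for D30 against D20, and 1 of the 8 rises, Plxna4, for D25 against D22. Organoids near the limit of 100 CPM were D25 organoid 4 at 108 and D20 organoid 3 at 74.8, and the alternatives were chosen after seeing the data. The part of the cortex markers in the results was not tested beyond these fits, and that of the other marker lists was not tested.

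**Figure D5:**
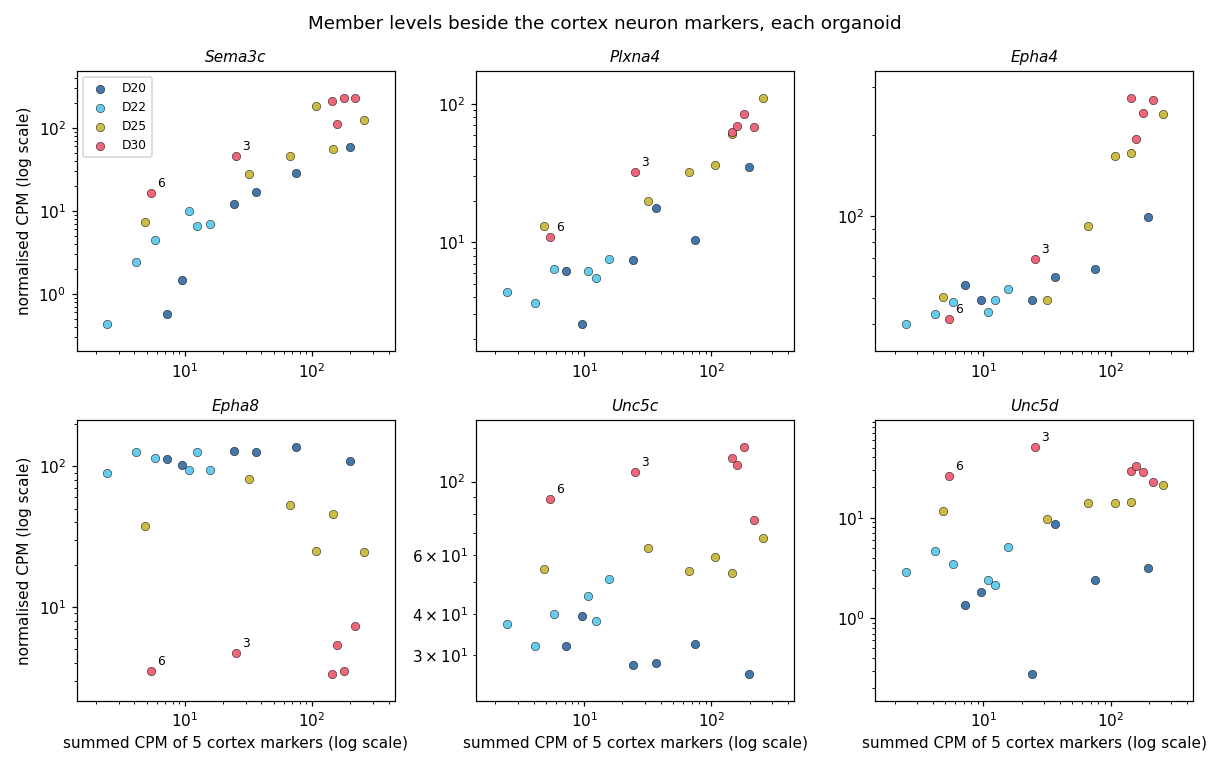
Each panel sets the normalised CPM of 1 member (vertical axis) against the summed CPM of the 5 cortex neuron markers (horizontal axis) in the 24 organoids, both on log scales, with timepoints by colour and D30 organoids 3 and 6 numbered. Sema3c, Plxna4 and Epha4 are lower in D30 organoids 3 and 6, at marker sums of 25.3 and 5.38, than in the other 4 D30 organoids. Epha8 lies between 3.36 and 7.38 CPM in all 6 D30 organoids, and Unc5c and Unc5d lie above the D25 organoids in all 6.

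The label retina was checked on marker lists. All 10 photoreceptor markers were tested and their sum rose from between 1072 and 2133 CPM at D20 to between 7036 and 13861 at D30, and the sum of the 10 progenitor markers was between 1096 and 1698 at D20 and between 379 and 631 at D30. Bipolar cell markers went from between 46.2 and 62.1 to between 226 and 363 CPM, with 5 of 6 called higher, and Müller glia markers from between 1094 and 1396 to between 1370.0 and 4276 CPM, with 4 of 8 called higher and 2 lower. The 12 ganglion cell markers, from the cells whose axons leave the eye, summed to 231 to 365 CPM on D20, 132 to 206 on D22, 117 to 222 on D25 and 134 to 450 on D30, and Atoh7 and Pou4f3 were at 0 in 10 and 7 of the 24 organoids. At D20 and D30 most of this sum came from Nefl and Nefm. Of the 10 ganglion cell markers tested, Pou4f1 (-3.37 ± 0.37), Pou4f2 (-3.80 ± 0.49), Sncg (-4.55 ± 0.31) and Rbpms (-1.45 ± 0.29) fell from D20 to D30, and Nefh (1.09 ± 0.23) and Thy1 (3.41 ± 0.63) rose. A list of 6 mesenchyme markers summed to 8.25 to 26.8 CPM at D20 and to 31.1 to 238 at D30, with 4 of the 6 called higher. The 6 endothelial genes summed to between 126 and 343 CPM, nearly all of it from Kdr, at 124 to 341 CPM in every organoid, while Cdh5 and Emcn were at 0 in 19 and 21 organoids, and the 6 microglia and blood markers summed to at most 1.14 CPM. The part of the lists that moved in the results above was not tested.

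Genes that mark position in the retina are the background of the Eph and ephrin gradients. Of 5 dorsal genes, Tbx2, Tbx3 and Tbx5 fell from D20 to D30 (-1.49 ± 0.18, -2.04 ± 0.18 and -2.06 ± 0.49), and Bmp4 (1.61 ± 0.58) and Aldh1a1 (0.31 ± 0.43) did not pass. The dorsal Efnb1 and Efnb2 fell between the same timepoints. The ventral Ephb2 and Ephb3 fell too, while none of the 3 tested ventral genes of 4 in the tables passed. Over the same interval 16.5% of the tested protein-coding genes and 13% of all tested features were called lower. Whether the falls of position genes and of Eph and ephrin genes were related was not tested. The nasal factor Hmx1 fell by 2.60 ± 0.22 on the log2 scale, as did the nasal Efna2 by less. Efna5, also graded along the nasal to temporal axis, did not pass (-0.32 ± 0.21). Foxd1 and Foxd2, which mark the temporal side, were not tested because of low counts.

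Other genes of the guidance pathways came from a list of 61 cues, receptors and signal carriers, of which 59 were in the tables and 58 tested. From D20 to D30, 16 rose (27.6%) and 7 fell (12.1%), beside 28.8% and 16.5% of the tested protein-coding genes, and the median log2 fold change was 0.27. Of the semaphorin signal carriers, Dpysl3 (0.84 ± 0.12), Dpysl2, Mical2, Farp1 and Farp2 (1.64 ± 0.17) rose and Mical1 fell (-1.91 ± 0.20). Of the ephrin signal carriers, the Rac activator Tiam1 fell (-1.21 ± 0.12) and Ngef, the exchange factor ephexin that works downstream of EphA receptors, rose (1.25 ± 0.29). On the Slit and netrin side, the actin-binding Ablim1 and Ablim3 rose by 2.18 ± 0.17 and 2.21 ± 0.57, Usp33, which deubiquitinates Robo1, by 0.81 ± 0.09, and Abl1, Abl2, Enah, Vasp and Trio fell by between 0.60 and 0.33 on the log2 scale. The adhesion and guidance receptors Dscaml1, Nptn, Chl1 and Flrt2 rose, with Dscaml1 from 7.34 to 32.8 CPM. From D20 to D22 1 of the 58 rose (1.72%) and none fell, beside 2.89% and 0.912% of the tested protein-coding genes. From D22 to D25 8 rose (13.8%) and 2 fell (3.45%), beside 8.66% and 3.02%, and from D25 to D30 3 rose (5.17%) and 1 fell (1.72%), beside 5.35% and 3.03%.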

How the data were processed

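RNA of 24 MROs, 6 at each of 4 timepoints, was sequenced. The authors trimmed reads with cutadapt (1.5), aligned them with HISAT2 to GRCm38/mm10, assembled transcripts with StringTie (1.3.3) and counted reads per feature with HTSeq (0.6.1). The deposited values are these counts, whole numbers without normalisation. The libraries were strand-specific, but whether the counting used strand is not given in the sources used here. An annotated gene on the opposite strand overlaps 12 tested members. Of these, 7 were called for D30 against D20, namely Epha6, Epha10, Ephb4, Plxna1, Plxna4, Sema4c and Unc5c. Groups came from the sample labels.

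Summary lines of the counting were left out. Of the features, 46949 reached a base mean of 10. Their counts were TMM-normalised and entered 1 quasi-likelihood model across the 24 organoids in edgeR (4.0.16, R 4.3.3), whose p-values were adjusted over these features after Benjamini-Hochberg and called below 0.01. Standard errors came from the test statistic, and the common biological coefficient of variation was 0.385. Depth was 13634846 to 19477108 counted reads. Normalised CPM use TMM-scaled totals of the tested features, and exon lengths and symbols came from a GENCODE annotation of GRCm38. Alternatives were DESeq2 (1.42.0) and its size factors, other filters on low counts, annotated genes only, a replicate block, only the timepoints compared, and leaving out each organoid. Figures used matplotlib (3.10.9).

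Every member is named or counted. Full values are given for up to 12 rises and 12 falls from D20 to D30, up to 5 of each per step, the member with the highest level per exon length in each family, and Ephb2, Ephb3, Efnb1, Efnb2, Epha5, Efna2 and Efna5. Members and lists were chosen with earlier results of these data known. Other features were left out of the text, and some listed genes are not reported here and entered no list, sum or count.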

Additional observations from a re-analysis of the deposited data

Results flagged for a closer look

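Among 34 members in 4 timepoints, 136 groups of 6 organoids, 14 groups had 1 organoid far from the other 5, by Dixon's test at the 95% level, which marks about 1 group in 20 by chance. D20 organoid 6 was high for 4 of them: it had 99.0 CPM of Epha4, where the next highest was 64.0, 384 CPM of Epha5 (next 273), 53.7 CPM of Epha7 (next 36.3) and 97.6 CPM of Nrp1 (next 67.1). Its cortex marker sum of 198 CPM was the highest of D20. D22 organoid 6 was lowest for Epha5, at 225 CPM beside 295 or more, and highest for Ntn4, at 18.2 CPM beside 12.7 or less. D30 organoid 3 was lowest for Efnb2, at 44.2 CPM beside 88.5 or more, and highest for Unc5d, at 50.1 CPM beside 32.8 or less.

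Single organoids stood apart for 1 gene each in the other cases. Efna5 reached 9.06 CPM in D22 organoid 5 (next 7.54), Sema7a 10.1 CPM in D22 organoid 3 (next 6.14) and Unc5d 8.71 CPM in D20 organoid 4 (next 3.14). Nrp1 was at 85.8 CPM in D25 organoid 4 (next 52.0). At the lower end, Sema3e was at 7.90 CPM in D25 organoid 5 (next 9.84) and Sema4c at 15.3 CPM in D25 organoid 2 (next 18.1). No explanation was tested.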

How the results depend on the processing

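For D30 against D20, the counts of 13 rises and 16 falls stayed within 1.5 times under the alternatives in the methods, and 24 of the 29 calls were kept in all 24 fits without 1 organoid (11 to 16 rises and 13 to 16 falls). The exceptions were Epha3, Sema3f, Ntn4, Epha6 and Sema7a. Calls gained there were Efnb3 without D20 organoid 4 or D30 organoid 3 or 6, Robo1 without D20 organoid 4 or D30 organoid 6, Ntn1 without D20 organoid 4, Plxnb1 without D30 organoid 5, and Sema4g and Sema6a without D30 organoid 1. Without the 8 organoids with a cortex marker sum over 100 CPM, an alternative chosen after seeing the data, 6 members rose, and the median of the tested protein-coding genes moved by -0.14 on the log2 scale. The step counts were less stable. Leaving out each organoid gave 0 to 2 rises and 0 to 2 falls from D20 to D22, 3 to 9 rises and 2 falls from D22 to D25, and 2 to 4 rises and 3 to 7 falls from D25 to D30. The organoids behind such shifts were, from D20 to D22, D20 organoids 1 to 5, all of D22, D25 organoid 4 and D30 organoid 5, from D22 to D25, D22 organoids 1, 4, 5 and 6 and D25 organoids 1 and 4, and from D25 to D30, D25 organoids 4 and 5 and D30 organoid 6. Where a cause is not named here, it was not tested.

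From D20 to D22, 2 members rose with no filter on low counts and without the 8 organoids, 2 fell under DESeq2 and with only the timepoints compared, and 0 fell with the cortex covariate. From D22 to D25, 1 rose without the 8 organoids and 1 with the covariate, while 6 fell among annotated genes only. From D25 to D30, 5 rose under DESeq2, 4 with only the timepoints compared or with the covariate, 6 without D30 organoids 3 and 6, and 0 without the 8 organoids, while 3 fell with only the timepoints compared and without D30 organoids 3 and 6.

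Replicate numbers were not treated as pairs in the main fit. Of 36 same-number correlations 1 was over 0.1 (range -0.083 to 0.214), that of number 1 in D25 and D30. Of the 24 organoids, 8 were closest to their own number, and whether this exceeds the count expected by chance was not tested. With the replicate block, 5 members rose from D22 to D25 in place of 8, and 0 fell from D20 to D22 in place of 1.

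Of the calls for D30 against D20, Epha6 alone changed direction (-0.17 without the 8 organoids). Uncalled members turned as follows. Without the 8 organoids, Efna3 was at -0.67, Efnb3 at -0.0786, Ephb1 at -1.10, Ephb6 at -0.97, Nrp1 at -0.96, Nrp2 at -0.69, Slit2 at 0.0854 and Unc5a at -0.13. With the covariate, Ephb1 was at -0.27, Nrp1 at -0.19, Nrp2 at -0.0928 and Slit2 at 0.0273. Without D30 organoids 3 and 6, Epha5 was at 0.0637, Plxnd1 at 0.13, Robo2 at 0.0408, Robo3 at 0.14 and Slit1 at 0.0781. Slit2 was at 0.0368 under DESeq2 and at 0.0373 with its size factors, and Nrp1 at -0.0478 and Unc5b at -0.0106 among annotated genes only. Leaving out each organoid gave -0.14 to 0.23 for Nrp1, -0.72 to 0.0104 for Robo3 and -0.10 to 0.0326 for Slit2. Depth limits members below about 1 CPM, such as Ntn1, Slit3 and Sema3d at D20.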
